A study of Neurospora crassa with 3 samples.

Results

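The genes described here are 123 genes of the filamentous fungus Neurospora crassa whose antisense reads were higher in both libraries of the genotype labelled set-2 H3G34R than in the other 4 libraries. They were chosen from 7286 of 9730 annotated genes, those for which the reads counted on both strands together equalled the sum of the reads on each strand in all 6 libraries, so that a gene on the opposite strand did not share the reads. The antisense level is given in CPM, antisense reads per 1e6 sense reads in genes, and the sense level in CPM on the same total. A gene was taken when the lower of its 2 set-2 H3G34R antisense values was at least 1.5 CPM and at least 2 times the highest of the other 4 values. The antisense values of all 6 libraries chose the genes, so the antisense contrast of set-2 H3G34R with the other genotypes is a description and was not tested. Both set-2 H3G34R libraries lay above the other 4 in 12.7% of the 6863 eligible genes with an antisense read. Another 48 genes passed both thresholds and were left out because their strand columns did not add up.

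Poly-A RNA came from 3 genotypes with 2 stranded libraries each, all from liquid cultures shaken for 18 h at 32 °C in Vogel's medium. The tissue is labelled mycelia and the source is labelled germinated conidia. H3G34R was represented by strains N5247 and N5248, which carry a histone H3 with arginine in place of a glycine. The genotype set-2 ash1(Y888F) was represented by N6266 and N6267, which carry an ASH1 with a changed tyrosine on a set-2 deletion, as the series' text describes it. The genotype set-2 H3G34R was represented by the single strain N6777, sequenced 2 times and described as the same H3 change on a set-2 deletion. No source says that the N6777 libraries came from separate cultures, so p-values measure the spread between libraries, which may be technical there. The H3 change is thus shared by H3G34R and set-2 H3G34R, and the set-2 deletion by both genotypes labelled set-2. No genotype carried the set-2 deletion alone, and wild-type libraries were not used here.

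SET-2 travels with elongating RNA polymerase and methylates lysine 36 of histone H3 over transcribed genes. ASH1 is the other enzyme of this fungus that methylates this lysine, which lies close to the glycine changed in H3G34R. In budding yeast, H3K36 methylation by Set2 recruits a histone deacetylase complex, and without it transcription starts inside genes and on the opposite strand. A stranded library separates these opposite-strand reads from the mRNA, which a count on both strands does not.

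Sense reads in genes numbered 7.52 to 9.83 M (1e6 reads) per library, and antisense reads made up 3.08% to 3.78% of all reads in genes. The antisense share of set-2 H3G34R was 3.49% and 3.46%, inside the range of the other libraries. In the 100 genes with most sense reads, the median antisense percentage was 0.205% and 0.225% in set-2 H3G34R, below the 0.300% to 0.624% of the other libraries. Unmapped reads were 1.31% and 1.61% in set-2 H3G34R and 3.03% to 4.23% elsewhere, and reads at several places 5.32% and 4.09% against 2.27% to 3.55%. Sense reads of set-2 (NCU00269) were present in all libraries, at 34.2 and 25.6 CPM in H3G34R, 20.3 and 16.4 CPM in set-2 ash1(Y888F), and 31.8 and 31.2 CPM in set-2 H3G34R. The counts therefore do not show the set-2 deletion, and the genotypes are called by their labels. In whole mycelia, fewer cells of a type and less RNA per cell cannot be told apart.

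The 123 genes ranged widely in antisense level. The lower set-2 H3G34R value had a median of 4.25 CPM and ran from 1.51 to 130.2 CPM, with 26 genes at 10 CPM or more and 53 at 5 CPM or more. It exceeded the highest other library by a median of 2.62 times, at least 3 times in 43 genes and at least 5 times in 10. The median gene had 0.637 and 0.610 antisense CPM in H3G34R, 1.07 and 1.33 CPM in set-2 ash1(Y888F) and 4.67 and 4.76 CPM in set-2 H3G34R. Their share of all antisense reads was 3.71% and 3.51% in set-2 H3G34R and 0.483% to 0.819% elsewhere. Exchanging the roles of the genotypes in the same rule gave 127 genes raised in set-2 ash1(Y888F) and 67 raised in H3G34R. Near the level threshold, NCU03248, NCU06706 and NCU08128 were inside at 1.51 CPM, and NCU00135, NCU08456 and NCU10237 were outside at 1.49 CPM. Near the ratio threshold, NCU07473, NCU10062 and NCU05350 were inside at ratios of 2.02, 2.05 and 2.06, and NCU00580, NCU02579 and NCU06860 were outside at 1.99, 1.97 and 1.96.

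**Figure D1:**
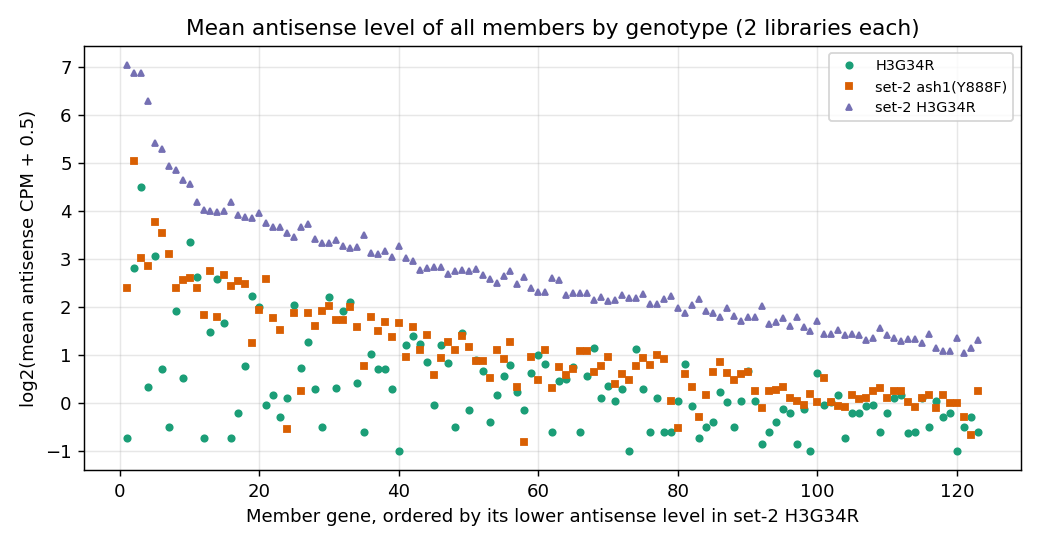
Mean antisense level of each of the 123 genes in the 3 genotypes (2 libraries each), as log2(mean CPM + 0.5), with genes ordered along the horizontal axis by their lower set-2 H3G34R value. The set-2 H3G34R points lie above the others by construction; the highest other library was a set-2 ash1(Y888F) library for 90 genes and an H3G34R library for 33.

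NCU05311 had the highest antisense level and the largest ratio. Its antisense level was 0.106 and 0.102 CPM in H3G34R, 1 read per library, 5.81 and 3.72 CPM in set-2 ash1(Y888F), and 130.2 and 131.6 CPM in set-2 H3G34R. Its sense level was 28.6 and 32.8 CPM, 32.2 and 32.3 CPM, and 38.0 and 43.7 CPM in the same order. Antisense reads thus made up 77.4% and 75.1% of the gene's reads in set-2 H3G34R, against 0.370% and 0.310% in H3G34R. The sense difference was small beside this, a log2 fold change of 0.47 ± 0.15 (SE, edgeR adjusted p = 0.0314) against H3G34R and 0.11 ± 0.15 (edgeR adjusted p = 0.610) against set-2 ash1(Y888F). The call against H3G34R was lost with DESeq2 (adjusted p = 0.0689) and without any 1 of the 4 libraries compared (edgeR adjusted p from 0.0501 to 0.183).

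NCU11212 had 0.212 and 1.32 antisense CPM in H3G34R, 4.87 and 8.64 CPM in set-2 ash1(Y888F), and 84.97 and 70.2 CPM in set-2 H3G34R. Its sense level rose as well, from 22.3 and 25.6 CPM and from 18.5 and 20.2 CPM to 51.8 and 44.0 CPM. These sense rises passed the test, with log2 fold changes of 1.05 ± 0.16 (SE, edgeR adjusted p = 0.00135) and 1.07 ± 0.16 (edgeR adjusted p = 0.00384). The antisense reads still outnumbered the sense reads only in the set-2 H3G34R libraries, at 62.1% and 61.5% of the gene's reads.

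The gene listed as mbp3 (NCU09815) and NCU07715 showed the 3 genotypes in order. For mbp3 the antisense level was 1.17 and 1.12 CPM in H3G34R, 9.73 and 12.6 CPM in set-2 ash1(Y888F), and 41.2 and 35.96 CPM in set-2 H3G34R. Its sense level stayed between 7.97 and 10.3 CPM in all 6 libraries. NCU07715 had 0.212 and 0.203, 5.46 and 10.6, and 30.2 and 30.0 antisense CPM, while its sense level of 89.9 and 87.7 CPM in H3G34R was 56.7 and 62.9 CPM in set-2 H3G34R (log2 fold change −0.52 ± 0.14, SE, edgeR adjusted p = 0.0152). Leaving out set-2 H3G34R replicate 1, or either H3G34R library, ended this sense call (edgeR adjusted p from 0.0710 to 0.0896). The set-2 H3G34R libraries lie highest in antisense by the rule. In both genes both set-2 ash1(Y888F) libraries also lay above both H3G34R libraries, as in 54.5% of the 123 genes (background 34.8%).

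NCU08130 and NCU05342 differed from these in that set-2 ash1(Y888F) was the lowest genotype. NCU08130 had 27.9 and 16.3 antisense CPM in H3G34R, 6.29 and 9.04 CPM in set-2 ash1(Y888F), and 138 and 97.5 CPM in set-2 H3G34R. NCU05342 had 9.45 and 10.1, 5.58 and 5.59, and 22.8 and 23.8 CPM. NCU05342 carried 14.9% to 16.8% antisense reads in both H3G34R and set-2 H3G34R, and its sense level was higher too, going from 54.1 and 49.8 CPM to 131 and 127 CPM.

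**Figure D2:**
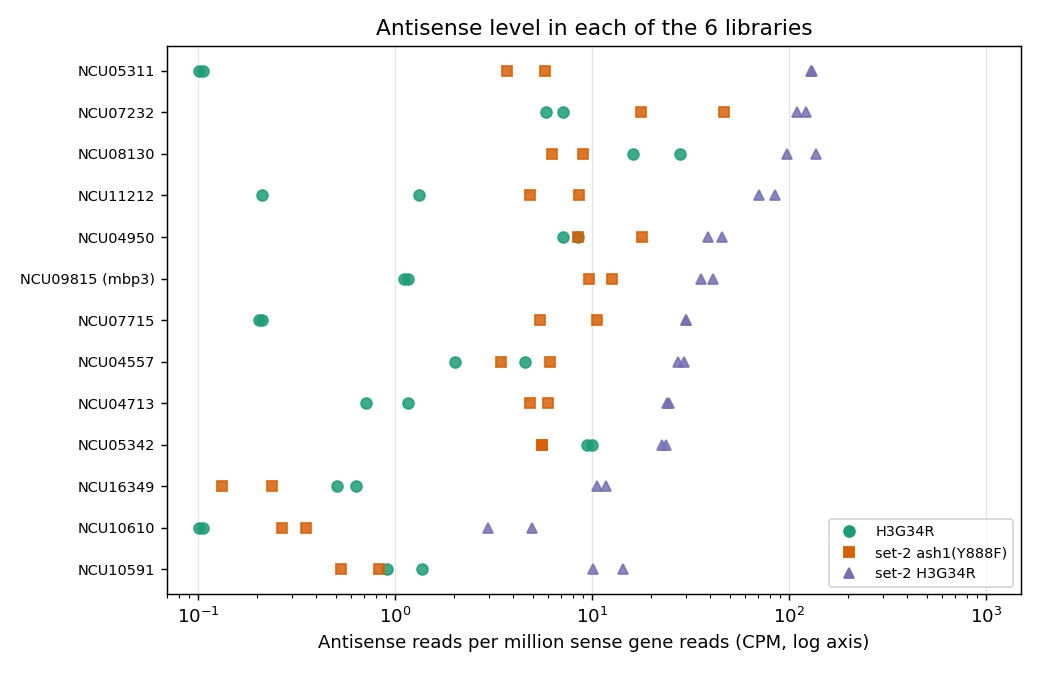
Antisense level (CPM, log axis) in each of the 6 libraries for the 10 genes with the highest lower set-2 H3G34R value and the 5 with the largest ratio, 13 genes in all since some are in both sets. Symbols mark the genotype; NCU05311 runs from 0.102 CPM in H3G34R to 131.6 CPM in set-2 H3G34R, and NCU16349 from 0.133 to 11.8 CPM.

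The antisense share of a gene's reads was highest in set-2 H3G34R in most, but not all, of the 123 genes. The median antisense percentage of the 123 genes was 2.86% and 3.498% in H3G34R, 6.21% and 9.40% in set-2 ash1(Y888F), and 27.4% and 24.8% in set-2 H3G34R. The percentage contains the antisense reads that chose the genes, so its counts are a description, given without a share of all eligible genes. In 89 genes it was higher in both set-2 H3G34R libraries than in the other 4. In the other 34 it was not. NCU07232 was the clearest of these. Its antisense level was 5.84 and 7.12, 17.8 and 47.1, and 110 and 122 CPM, beside a sense level of 232 and 327, 935 and 2527, and 12605 and 13500 CPM, so that the antisense percentage was 0.869% and 0.896% in set-2 H3G34R and 1.83% to 2.45% elsewhere. In 5 genes (NCU05126, NCU07232, NCU08949, NCU09278 and NCU09650) antisense reads made up under 1% of the reads in both set-2 H3G34R libraries.

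More antisense than sense reads in both set-2 H3G34R libraries were found in 29 of the 123 genes, 23.6%, where the share among the 7286 eligible genes was 5.19%. The counts in H3G34R and set-2 ash1(Y888F) were 13 and 15 genes, beside eligible shares of 4.5% and 4.05%. The rule favours genes rich in antisense reads, so these shares are given without a reading. In 8 genes antisense exceeded sense in all 6 libraries. NCU16349 was one, with 0.637 and 0.509, 0.237 and 0.133, and 11.8 and 10.7 antisense CPM and at most 3 sense reads in any library. NCU06480 was another, with 15.1 and 15.4 antisense CPM in set-2 H3G34R, 2.02 to 6.16 CPM elsewhere, and 1 sense read over all libraries. In 10 genes antisense exceeded sense in both set-2 H3G34R libraries and in no other, among them NCU05311, NCU11212, NCU04557, NCU00829, NCU04555 and pmg (NCU03509).

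The rule held antisense low in both set-2 ash1(Y888F) and H3G34R. It set a limit on the highest of these 4 libraries, so their values are a description, with no test reported and nothing read from the background. Both set-2 ash1(Y888F) libraries lay above both H3G34R libraries in 67 genes (54.5%, background 34.8%) and below them in 12 (9.76%, background 17.3%), where the background includes genes with few antisense reads. NCU01840, NCU07271, NCU07472 and NCU09776 had no antisense read in either H3G34R library.

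The rule did not use the sense counts of a gene, and the sense level was tested across all genes. The choice and the sense level are still not separate where antisense rose along with sense, as in NCU07232, and the 34 genes whose antisense percentage did not exceed that of all other libraries are among those counted. Against H3G34R, 44 of 116 genes tested were higher in set-2 H3G34R (37.9%, background 30.7% of 8561 genes) and 26 were lower (22.4%, background 31.1%), while 46 did not pass the edgeR test. Against set-2 ash1(Y888F), 26 were higher (22.4%, background 18.2%), 18 were lower (15.5%, background 19.9%) and 72 did not pass. The median sense log2 fold change was 0.28 and 0.16 in these comparisons, beside −0.01 and 0.02 over all genes tested. Against both genotypes at once 17 genes were higher (14.7%, background 11.8%) and 11 lower (9.48%, background 12.3%). Past neither test were 32 of the 116 genes, for which the share over all genes tested is not given. Between set-2 ash1(Y888F) and H3G34R, 35 were higher (30.2%, background 26.3%) and 23 lower (19.8%, background 25.5%). The other 7 genes had too few sense reads to be tested, and 2 of the 116 (NCU04778 and NCU05853) reached the count minimum in set-2 H3G34R alone. Leaving out either set-2 H3G34R library lowered both counts against set-2 ash1(Y888F). The lower count between set-2 ash1(Y888F) and H3G34R fell from 23 to 12 and 14 without H3G34R replicate 1 and 2. Plotted gene by gene, antisense differences stand beside sense log2 fold changes of either sign.

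**Figure D3:**
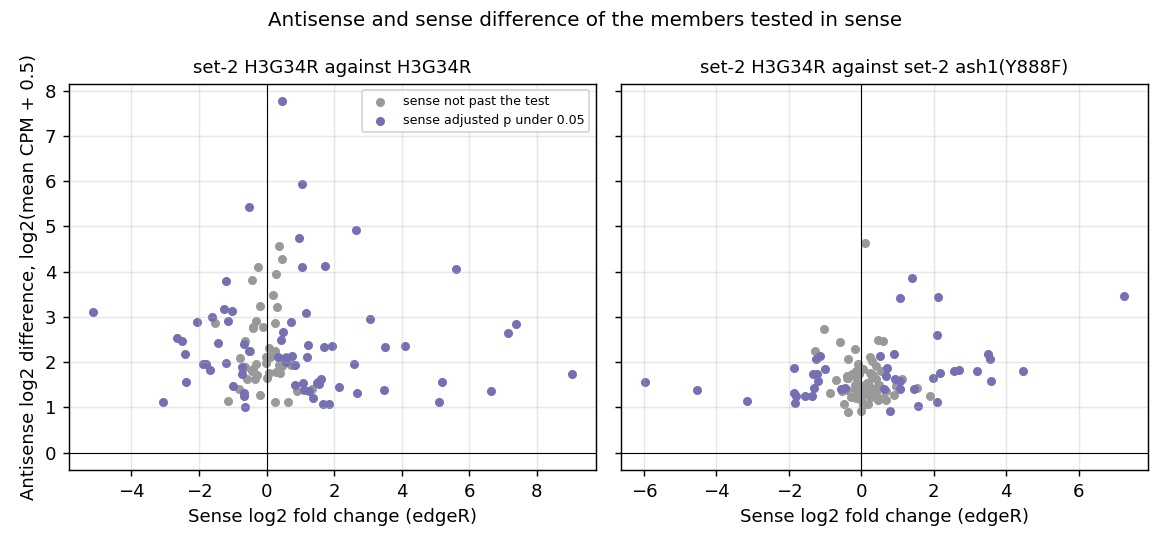
Antisense log2 difference (vertical axis, log2 of mean CPM + 0.5) against sense log2 fold change (horizontal axis, edgeR) for the 116 genes tested in sense, set-2 H3G34R against H3G34R on the left and against set-2 ash1(Y888F) on the right. All points lie above 0 on the vertical axis by the rule and on both sides of 0 on the horizontal axis; the point farthest right in each panel is a gene without sense reads in the other genotype, so its fold depends on the fit's prior count.

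Several genes combined more antisense with much less sense RNA in set-2 H3G34R than in the genotypes compared. The sense level of pmg (NCU03509) fell from 194 and 168 CPM in H3G34R and 153 and 40.8 CPM in set-2 ash1(Y888F) to 4.78 and 5.10 CPM, while its antisense level went from 1.38 and 1.02 and from 4.63 and 5.59 to 14.8 and 13.6 CPM. The sense log2 fold changes were −5.13 ± 0.66 (SE, edgeR adjusted p = 0.000781) and −4.54 ± 0.65 (edgeR adjusted p = 0.00351). Over wild type, the authors' deposited log2 fold change of pmg was 4.60 in H3G34R and 1.25 in set-2 H3G34R, where it includes antisense reads. The fall against H3G34R was thus from a level above wild type. NCU00829 fell in sense from 34.3 and 46.1 CPM and from 22.7 and 14.1 CPM to 6.48 and 5.92 CPM, with antisense at 2.12 and 2.44, 6.41 and 6.12, and 15.2 and 15.9 CPM. Its sense libraries did not overlap between genotypes. In antisense, where the rule puts set-2 H3G34R highest, both set-2 ash1(Y888F) libraries also lay above both H3G34R libraries.

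NCU07206 had 2.34 and 2.95, 1.31 and 1.46, and 0.637 and 0.232 sense CPM in the 3 genotypes, in the order used above. Its antisense level was 1.27 and 2.54, 2.73 and 3.59, and 15.7 and 9.86 CPM. Sense fell by 2.49 on the log2 scale against H3G34R (edgeR adjusted p = 0.00459) on counts of 2 to 29 reads per library. NCU02019 differed between the comparisons. Its sense level was 123 and 84.0 CPM in set-2 ash1(Y888F), 4.35 and 2.75 CPM in H3G34R and 1.91 and 1.97 CPM in set-2 H3G34R, and it fell by 5.97 ± 0.31 (SE, log2) against set-2 ash1(Y888F) (edgeR adjusted p = 0.000140) with no call against H3G34R (log2 fold change −0.81 ± 0.37, edgeR adjusted p = 0.0979), where it became a call without either set-2 ash1(Y888F) library (edgeR adjusted p = 0.0447 and 0.0393). Its antisense level was 3.06 to 4.07 CPM in the other libraries and 10.4 CPM in both set-2 H3G34R libraries. The falls of NCU04591 (log2 fold change −3.07) and NCU01651 (−2.41) against H3G34R passed the edgeR test with adjusted p of 0.000983 and 0.000717.

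Other genes were higher on both strands in set-2 H3G34R than in H3G34R. NCU05126 had a sense level of 3.93 and 6.20 CPM in H3G34R, 31.7 and 91.5 CPM in set-2 ash1(Y888F), and 1030 and 606 CPM in set-2 H3G34R, with 0.106 to 0.931 antisense CPM in the other libraries and 4.99 and 3.36 CPM in set-2 H3G34R. The sense log2 fold changes were 7.37 ± 0.64 (SE, edgeR adjusted p = 0.000187) and 3.502 ± 0.52 (edgeR adjusted p = 0.00381). Over wild type, the authors' deposited log2 fold change of NCU05126 was −6.79 in H3G34R and 0.36 in set-2 H3G34R (DESeq2 adjusted p = 0.421). For NCU05126 the difference thus went with a low level in H3G34R, whereas NCU09650 was at 0.48 and 6.82 over wild type. NCU09650 rose in sense from 6.48 and 4.27 CPM and from 26.8 and 46.5 CPM to 523 and 516 CPM, a log2 fold change of 6.65 ± 0.33 (SE, edgeR adjusted p = 3.68e-05) against H3G34R, with 2.66 and 2.09 antisense CPM in set-2 H3G34R. NCU17138 had no sense read in either H3G34R library and 8.39 and 6.73 CPM in set-2 H3G34R, at least 24.2-fold higher than a floor of 3 reads per library. NCU10591 rose on both strands, with sense at 0.814 to 2.39 CPM in the other libraries and 11.02 and 11.05 CPM in set-2 H3G34R, and antisense at 0.532 to 1.38 CPM and then 14.4 and 10.1 CPM. NCU08680 did not gain in sense against H3G34R, where it had 3.72 and 2.34 CPM beside 2.87 and 1.51 CPM in set-2 H3G34R (log2 fold change −0.40, edgeR adjusted p = 0.463). It had no sense read in the libraries of set-2 ash1(Y888F), so its level in set-2 H3G34R was at least 5.80-fold higher than the floor there.

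The fold change of several genes depended on whether the strands were counted apart. With both strands counted together, 68 of the 123 genes were higher in set-2 H3G34R than in H3G34R (55.3%, background 30.2%) and 15 were lower (12.2%, background 30.6%). Against set-2 ash1(Y888F) 51 were higher (41.5%, background 18.1%) and 11 were lower (8.94%, background 19.5%). These counts contain the antisense reads that chose the genes and are given for the effect of the counting alone. Of the 68, 24 were not called higher in sense, beside 134 of the 2612 genes higher with both strands among all genes tested. Of the 26 genes lower in sense, 11 were not called lower with both strands, and the count over all genes is not given. For NCU05311 the log2 fold change against H3G34R was 2.52 (edgeR adjusted p = 3.28e-05) with both strands and 0.47 in sense. For mbp3 it was 2.43 (edgeR adjusted p = 6.31e-05) with both strands and 0.37 (edgeR adjusted p = 0.127) in sense. NCU07206 changed sign, from −2.49 in sense to 1.57 with both strands (edgeR adjusted p = 0.00537), and it was the 1 gene called in opposite directions, also against set-2 ash1(Y888F) (−1.85 and 1.30). In the latter comparison DESeq2 and each fit with 1 of the 6 libraries left out ended the sense call (edgeR adjusted p from 0.0587 to 0.160).

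**Figure D4:**
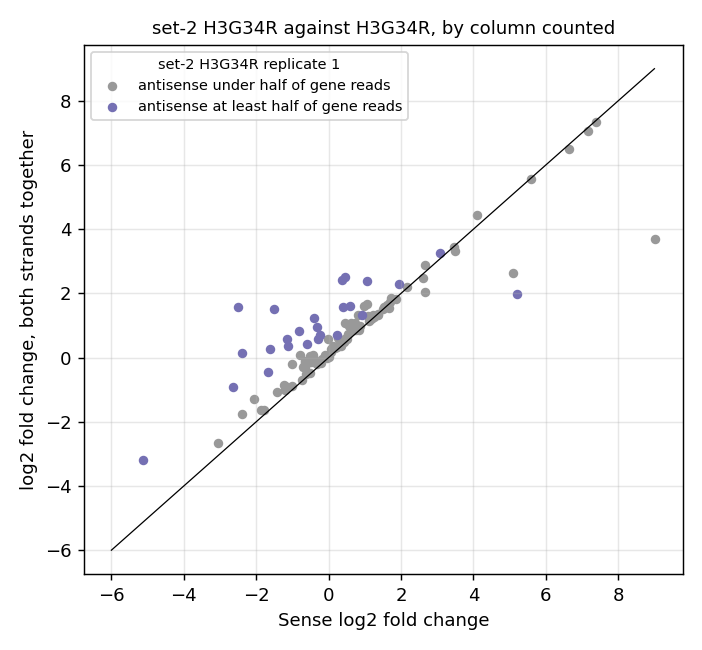
Log2 fold change of set-2 H3G34R against H3G34R with both strands counted together (vertical axis) against the sense log2 fold change (horizontal axis) for the 116 genes tested in sense; the line marks equal values. Purple points, where antisense reads were at least 50% of the gene's reads in set-2 H3G34R replicate 1, lie mostly above the line, as NCU05311 does at 0.47 and 2.52.

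Among the 11 genes with a symbol were several whose products are known. The nst-2 gene (NCU00523), for a deacetylase of the sirtuin family, had 0 and 0.102 antisense CPM in H3G34R, 0.593 and 0.266 CPM in set-2 ash1(Y888F), and 2.55 and 4.52 CPM in set-2 H3G34R. The dim-2 gene (NCU02247), for the DNA methyltransferase of Neurospora, had 0.637 and 0.102, 0.475 and 0.532, and 1.59 and 1.62 antisense CPM. Sense of neither passed the edgeR test in set-2 H3G34R, with log2 fold changes of 0.24 ± 0.15 (SE, adjusted p = 0.197) for nst-2 and −0.20 ± 0.12 (adjusted p = 0.166) for dim-2 against H3G34R.

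The ro-1 gene (NCU06976), for the heavy chain of cytoplasmic dynein, had 0.407 to 1.60 antisense CPM in the other libraries and 4.46 and 3.83 CPM in set-2 H3G34R, beside 219 to 261 sense CPM. The nap-1 gene (NCU03815), for a nucleosome assembly protein, had 0.106 and 0.203, 1.54 and 0.931, and 3.61 and 3.71 antisense CPM. Its sense log2 fold change was 0.50 ± 0.13 (SE, edgeR adjusted p = 0.0149) against H3G34R and −0.10 ± 0.13 (edgeR adjusted p = 0.578) against set-2 ash1(Y888F), and leaving out set-2 H3G34R replicate 1, or either H3G34R library, ended the first call (edgeR adjusted p from 0.0719 to 0.109). The stk-38 gene (NCU06202), for a protein kinase, had 0.305 to 0.831 antisense CPM in the other libraries and 3.82 and 4.06 CPM in set-2 H3G34R.

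The phytochrome gene phy-1 (NCU04834) moved in opposite directions in sense. It had 44.2 and 42.1 sense CPM in H3G34R, 10.3 and 9.97 CPM in set-2 ash1(Y888F) and 19.97 and 21.6 CPM in set-2 H3G34R, lower than H3G34R (log2 fold change −1.0002 ± 0.14, SE, edgeR adjusted p = 0.00107) and higher than set-2 ash1(Y888F) (0.80 ± 0.15, edgeR adjusted p = 0.00812). Its antisense percentage was 8.42% and 8.54% in set-2 ash1(Y888F) and 9.62% and 9.71% in set-2 H3G34R, and the higher of its 2 sense calls was lost without set-2 H3G34R replicate 2 (edgeR adjusted p = 0.0539). The cdc24 gene (NCU06067), for the exchange factor of the polarity GTPase CDC42, rose in sense from 53.7 and 50.9 CPM in H3G34R to 82.2 and 98.9 CPM (log2 fold change 0.85 ± 0.13, SE, edgeR adjusted p = 0.00137), with antisense going from 0.106 and 0.305 to 2.66 and 1.74 CPM. The crf9-1 gene (NCU00631) was higher in sense than in both genotypes, with log2 fold changes of 1.85 and 0.69 (edgeR adjusted p = 0.000656 and 0.0451), and the second was lost in the 4-library fit and without any 1 of 5 libraries, all but set-2 ash1(Y888F) replicate 2 (edgeR adjusted p from 0.0687 to 0.253). The gene acw-10 (NCU03013), for an anchored cell wall protein, rose in sense against H3G34R (1.20 ± 0.25, SE, edgeR adjusted p = 0.00554).

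Genes next to the 123 genes had raised sense RNA more often than genes next to eligible genes at large. An adjacent gene was higher in set-2 H3G34R than in both other genotypes for 51 of 123 genes (41.5%), beside 19.5% of 7285 eligible genes. It was lower than in both for 19 (15.4%), beside 18.9%. Counting neighbours that were not among the 123 genes left 48 (39.0%). Against H3G34R alone an adjacent gene was higher for 82 (66.7%, background 44.7%) and lower for 40 (32.5%, background 45.9%), and against set-2 ash1(Y888F) for 58 (47.2%, background 29.1%) and 35 (28.5%, background 29.6%). The difference between these shares was not tested. Without set-2 H3G34R replicate 1 the 51 became 32 (26.0%, eligible genes 8.46%), and without replicate 2 it became 26 (21.1%, eligible genes 7.69%). The 19 also fell without either library of H3G34R or of set-2 H3G34R, for which the share of eligible genes is not given. The reference table gives the order of genes but no strand, so the direction of a neighbour towards the antisense reads was not determined.

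Large rises were seen next to NCU02934, NCU05853 and NCU04557. NCU02932, next to NCU02934 and named after its values were seen, had 0.212 and 0.610 sense CPM in H3G34R, 149 and 151 CPM in set-2 ash1(Y888F), and 424 and 394 CPM in set-2 H3G34R. Its log2 fold changes were 9.94 ± 0.26 (SE, edgeR adjusted p = 7.11e-06) and 1.21 ± 0.15 (edgeR adjusted p = 0.00248). The sense level of NCU05852 was 1.49 and 0.712 CPM in H3G34R, 2.02 and 6.12 CPM in set-2 ash1(Y888F) and 78.0 and 84.3 CPM in set-2 H3G34R, log2 fold changes of 6.25 ± 0.48 (SE, edgeR adjusted p = 0.000128) and 4.11 ± 0.41 (edgeR adjusted p = 0.00124). NCU05853 itself had 5.74 and 5.59, 4.27 and 5.19, and 17.7 and 17.9 antisense CPM. NCU10865 had 6.69 and 9.26, 16.6 and 97.9, and 672 and 491 sense CPM, with log2 fold changes of 6.23 ± 0.83 (SE, edgeR adjusted p = 0.000922) and 3.12 ± 0.70 (edgeR adjusted p = 0.0144), the latter lost without set-2 H3G34R replicate 1 or 2 (edgeR adjusted p = 0.0764 and 0.0617). NCU04557 had 2.02 and 4.58, 3.44 and 6.12, and 29.2 and 27.3 antisense CPM while its sense level fell from 27.4 and 18.6 CPM in H3G34R to 9.03 and 10.9 CPM (log2 fold change −1.15 ± 0.27, SE, edgeR adjusted p = 0.00962), a call lost without H3G34R replicate 1 or set-2 H3G34R replicate 1 (edgeR adjusted p = 0.0662 and 0.0711).

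A neighbour of each of nst-2, phy-1 and ro-1 was raised as well. NCU00524, next to nst-2, had 2.97 and 2.03, 7.001 and 4.79, and 22.4 and 22.7 sense CPM. NCU04835, next to phy-1, had 9.03 and 11.5, 19.7 and 14.6, and 49.3 and 49.5 CPM. NCU06977, next to ro-1, had 172 and 171 CPM in H3G34R, 21.6 and 65.0 CPM in set-2 ash1(Y888F) and 474 and 583 CPM in set-2 H3G34R. All 3 passed the edgeR test against both genotypes, with log2 fold changes of 3.22, 2.32 and 1.68 against H3G34R and 1.69, 1.28 and 3.38 against set-2 ash1(Y888F). Leaving out set-2 H3G34R replicate 2, or either H3G34R library, ended the call of NCU06977 against H3G34R (edgeR adjusted p from 0.0685 to 0.0740). NCU11046, next to NCU10610, and NCU04630, next to NCU10591, passed it too, with log2 fold changes of 2.53 and 2.29 against H3G34R and 1.74 and 1.17 against set-2 ash1(Y888F). Other neighbours of genes with a symbol fell past the edgeR test against both genotypes. Next to nap-1 these were leu-5 (NCU03814), with log2 fold changes of −2.75 and −1.08, and NCU16968, with −1.22 and −0.97. Next to mbp3 it was cyt-26 (NCU09816), with −0.89 and −1.095. The other neighbour of nst-2, NCU16457, was higher than in H3G34R (0.64) and lower than in set-2 ash1(Y888F) (−0.74). The neighbours of NCU05311 did not rise either. NCU05312 had 24.2 and 21.1, 17.3 and 17.0, and 14.7 and 16.1 sense CPM, and NCU05309 lay between 157 and 284 CPM in all libraries.

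**Figure D5:**
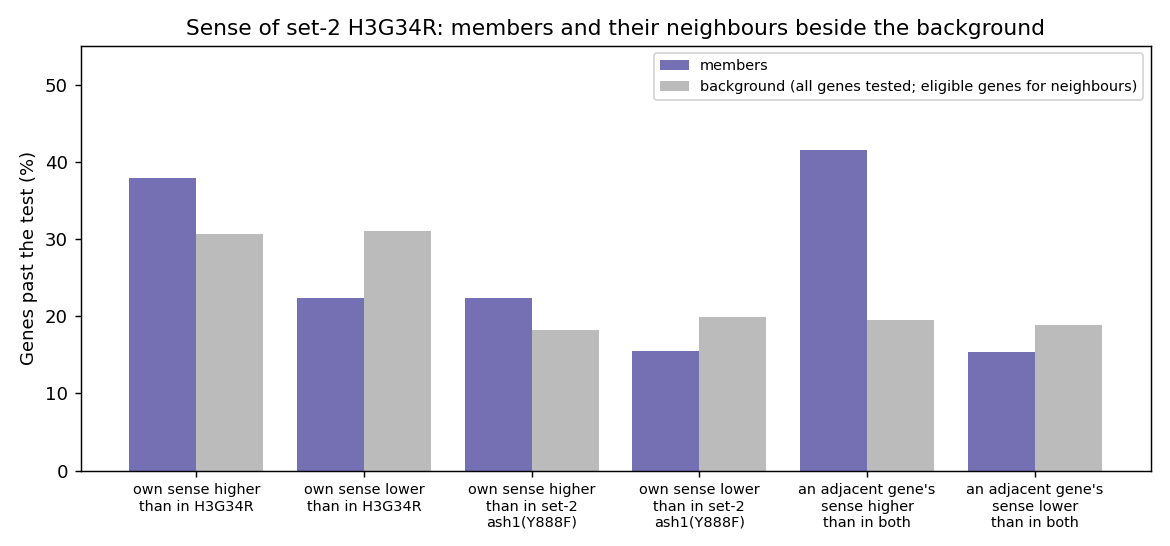
Share of genes past the edgeR test (adjusted p under 0.05) in sense for set-2 H3G34R, for the members and their neighbours (purple) beside the background (grey). Members' own sense lies within 9 percentage points of the background in each comparison, while 41.5% of members against 19.5% of eligible genes had an adjacent gene higher than in both other genotypes.

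The 123 genes included 7 runs of adjacent genes with 15 members in all. The longest, of 3 genes, was NCU05126, NCU17137 and NCU17138, where sense rose against H3G34R in all 3. The others were NCU01279 with NCU01281, NCU04192 with NCU04193, NCU05653 with NCU09800, NCU07472 with NCU07473, NCU08128 with NCU08130, and NCU09775 with NCU09776. In NCU04193 antisense was 0.531 and 0.102, 2.85 and 1.86, and 13.5 and 10.8 CPM, and in NCU04192 it was 1.27 and 0.203, 3.09 and 2.53, and 9.03 and 11.02 CPM.

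The authors' deposited tables compare each genotype with wild type, and all 123 genes are listed in them. In the authors' deposited table for H3G34R, 30 genes were higher (24.4%, background 33.6%) and 60 lower (48.8%, background 30.9%). In the authors' deposited table for set-2 ash1(Y888F), 18 were higher (14.6%, background 10.2%) and 4 lower (3.25%, background 6.05%). In the authors' deposited table for set-2 H3G34R, 44 were higher (35.8%, background 24.9%) and 36 lower (29.3%, background 26.4%). The values of these tables include antisense reads, since NCU06480, with 1 sense read in all 6 libraries, is listed at 2.68 (log2 fold change) for set-2 H3G34R in the authors' deposited table. The counts thus rest in part on the reads that chose the genes. NCU05311 was 2.46 lower on the log2 scale in H3G34R in the authors' deposited table (log2 fold change −2.46), and its log2 fold change in set-2 H3G34R was −0.08 there (adjusted p = 0.615). NCU07232 was at −6.50, 3.80 and −1.09 in the authors' deposited tables for the 3 genotypes, in that order. Its mean sense level was 279, 1731 and 13052 CPM in the same order. A single wild-type level cannot give these values, so the wild type behind the set-2 ash1(Y888F) table differed for this gene. The same holds for NCU05126, at −6.79, 1.41 and 0.36 in that order, and for NCU09775, at −11.4, 1.10 and −4.72. NCU09775 had 0.319 and 0.509, 4.27 and 18.5, and 51.9 and 66.2 sense CPM. The counts of the 3 tables are therefore not compared with each other. Whether the libraries of set-2 ash1(Y888F) also differ from the others by batch or culture was not tested. Such a difference could not be told apart from genotype in any comparison with set-2 ash1(Y888F) above. The tables do not separate the strands in what they list, and which wild-type libraries stand behind each is not given in the sources used here, so the antisense level of wild type was not determined.

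Genes of histone methylation, histones and histone deacetylation were mostly lower or not called. The list includes set-1, set-7 and dim-5, which are not among the H3K36 enzymes named above and which fell against H3G34R. Of 18 in the list, 1 rose and 9 fell in sense in set-2 H3G34R against H3G34R, where 30.7% of all genes tested were higher and 31.1% lower, and 1 rose and 5 fell against set-2 ash1(Y888F), where the shares were 18.2% and 19.9%; 1 of them, nst-2, is among the 123 genes. NCU01932, the gene known as ash1 and listed as set-3 in the reference table, fell by 1.05 ± 0.09 (SE, log2) against H3G34R (edgeR adjusted p = 0.000212). The set-2 gene was not called there (log2 fold change 0.13 ± 0.18, SE, edgeR adjusted p = 0.562). The histone H3 gene hH3 (NCU01635) fell by 0.48 ± 0.13 (SE, log2, edgeR adjusted p = 0.0155), and no fit with 1 of the 4 libraries compared left out called it (edgeR adjusted p from 0.0658 to 0.105). Beside the same backgrounds, of 10 genes of RNA interference, the small-RNA pathway that double-stranded RNA can enter, 3 rose and 4 fell against H3G34R, and 5 rose and none fell against set-2 ash1(Y888F). Of 11 markers of conidia and aerial hyphae, 7 rose and 1 fell against H3G34R (background 30.7% and 31.1%), and 6 rose and none fell against set-2 ash1(Y888F) (background 18.2% and 19.9%). Their summed sense level was 1186 and 1257 CPM in H3G34R, 725 and 1598 CPM in set-2 ash1(Y888F), and 4676 and 6599 CPM in set-2 H3G34R, and no marker was at 0 in any library. The largest part of this sum was ccg-14, at 706 and 722, 354 and 1096, and 3745 and 4905 CPM in the same order. The sum thus mainly follows ccg-14. In set-2 H3G34R the marker eas was at 173 and 680 CPM. Against H3G34R con-13 fell and con-6 was not called. None of these markers is among the 123 genes, and their part in the antisense, sense and neighbour differences above was not tested.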

How the data were processed

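The authors deposited raw gene read counts for each library, which the submitters' processing notes put down to STAR 2.6.0. Neither build nor annotation is given in the sources used here. A deposited table has a count column without regard to strand, a column for either strand, and 4 lines for reads that no gene received (16.0% to 23.9% of reads), which were left out of totals and tests. Sense is the strand column that held most gene reads in all libraries. Tables against wild type came from DESeq2 1.18.1, according to the submitters' processing notes, and have no header. Their values show the authors' mean normalised signal, log2 fold change with its standard error, Wald score, and p-values before and after adjustment; the log2 fold change and the adjusted p-value of the authors were used.

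The genes, lists and tests were chosen with earlier results of these data known. Sense counts of all 6 libraries were fitted with edgeR 4.0.16 (quasi-likelihood test, TMM, filterByExpr by genotype, two-sided, Benjamini-Hochberg adjustment over 8561 genes, threshold 0.05) in R 4.3.3. Antisense counts were fitted with edgeR on the sense scaling for set-2 ash1(Y888F) against H3G34R alone. No call of that fit is reported, since the rule limited the antisense values of both genotypes. The antisense contrasts with set-2 H3G34R were not tested. Fits were tested on simulated data. The 3 genotypes share 1 estimate of spread, since 2 libraries against 2 leave few degrees of freedom. Sampling noise did not account for the spread between the 2 libraries of any genotype. For sense, chi-square per degree of freedom was 33.45 in set-2 ash1(Y888F), 10.4 in H3G34R and 11.01 in set-2 H3G34R. The shared estimate may thus make p-values against set-2 ash1(Y888F) too small and those between H3G34R and set-2 H3G34R too large. One read was worth 0.102 to 0.133 CPM, so levels under 0.4 CPM rest on 3 reads or fewer.

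Symbols and the order of genes came from a RefSeq table of assembly NC12, which held 9729 of 9730 genes and all 123 here; it has no strand column, so neighbours' strands, which were to be used, were left out. Of the 123 genes, named were the 10 with the highest lower set-2 H3G34R antisense level, the 5 with the largest ratio, the 5 largest sense rises and falls past the test per comparison, up to 10 with more antisense than sense, those with a symbol, runs of adjacent genes, and 3 on each side of each threshold, with their neighbours; not all are given with values. Gene-set counts of 5 or fewer name their genes outside that rule, after their values were seen. Alternatives were other scalings, filters and thresholds, DESeq2 1.42.0, a minimum fold, smaller fits and leaving out each library.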

Additional observations from a re-analysis of the deposited data

How the results depend on the processing

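No paired analysis was possible because the labels number no replicates; strain names and library numbers only name samples. A minimum of 3 CPM left 80 genes, a ratio of at least 1.5 gave 217 and of at least 3 gave 43, while a minimum of 1 CPM, other totals or all genes gave 121 to 171. Leaving out 1 library gave 133 to 206 genes, which contained all 123 since a dropped library can no longer fail the rule. The counts of members higher and lower in sense against H3G34R ranged over 33 to 49 and 18 to 33 when a library was left out, against set-2 ash1(Y888F) over 13 to 30 and 10 to 21, and between set-2 ash1(Y888F) and H3G34R over 24 to 38 and 12 to 24. With both strands together they were 68 and 15 against H3G34R and 51 and 11 against set-2 ash1(Y888F). Tested against a minimum of 1.5-fold, they were 13 and 9 against set-2 ash1(Y888F), and 10 were lower between set-2 ash1(Y888F) and H3G34R. Members with an adjacent gene higher than in both genotypes ranged over 26 to 57, and lower over 9 to 24. DESeq2, its size factors in edgeR, no filter on low counts and the 4-library fit, where run, kept each other sense and neighbour count within 1.5 times.

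Of the 30 genes with a printed sense test, alternatives kept direction and side of the threshold in 507 cases, kept the direction and lost the call in 45, gained it in 4 and changed sign in 8. With both strands together, which adds the antisense reads that chose the genes, the log2 fold change against H3G34R became 0.06 for NCU07715, 0.58 for NCU04557, 1.57 for NCU07206, 0.83 for NCU02019 and 1.24 for NCU08680, and against set-2 ash1(Y888F) 1.30 for NCU07206. Values near 0 ranged over −0.01 to 0.20 for NCU05311 and over −0.24 to 0.01 for nap-1 (NCU03815) against set-2 ash1(Y888F) when a library was left out; the cause was not tested. At 1.5 CPM a library holds 11 to 15 antisense reads, so depth limits the genes near the threshold.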
